A study of Mus musculus with 12 samples.

Results

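The genes described here are 10 components of the neuronal cytoskeleton and growth cone. Their symbols and Entrez gene numbers, from which the probe sets are named, are Tubb3 (22152), Map2 (17756), Mapt (17762), Dcx (13193), Stmn2 (20257), Nefl (18039), Nefm (18040), Ina (226180), Gap43 (14432) and Crmp1 (12933). They were chosen by gene symbol, and each had 1 probe set among the 18784 named genes of the array. RNA levels came from 12 Affymetrix arrays in 4 groups of 3. The groups were neural progenitor cells (NPC) with an shRNA against Jarid1b, NPC with a scrambled shRNA (control), embryonic stem cells (ESC) with the Jarid1b shRNA and ESC with the scrambled shRNA. All cells came from the feeder-independent mouse ES line E14TG2a.4, kept with LIF, and both constructs were delivered by lentivirus (16 h of exposure, puromycin from 48 h after transduction). The labels name a single Jarid1b construct, give no clone or day of harvest for the NPC, and do not say whether replicates were separate cultures, so the spread behind every p-value is that between these arrays and may be technical. Jarid1b is now Kdm5b, a demethylase that acts on lysine 4 of histone H3.

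Neurons build long processes on a scaffold of microtubules, made of alpha- and beta-tubulin, and of intermediate filaments made of the neurofilament subunits and alpha-internexin. Microtubule-associated proteins stabilise or loosen the microtubules, and at the tip of a growing axon the growth cone links it to membrane and guidance signals. In cultures of the kind used here, ES cells pass through aggregates treated with retinoic acid to radial glia-like progenitors that go on to form neurons, so RNA of early neurons may already be present in an NPC sample. Each sample is a bulk culture, in which fewer cells of a type and less RNA per cell cannot be told apart.

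RefSeq promoter windows (mouse build GRCm38.p6, 250 bases before to 50 after an annotated start) were given for 5 of the 10 genes, namely Tubb3, Map2, Dcx, Ina and Crmp1. The 4 printed below are those of the 3 genes among them that were lower in knockdown ESC and of Dcx, which differed most between NPC and ESC. They lie at chr8:123411303-123411602 (+) for Tubb3, chr1:66175079-66175378 (+) for Map2, chr5:37241808-37242107 (+) for the first Crmp1 start and chrX:143933075-143933374 (-) for Dcx. Capitals mark CpG dinucleotides, which are dense in CpG island promoters.
Tubb3: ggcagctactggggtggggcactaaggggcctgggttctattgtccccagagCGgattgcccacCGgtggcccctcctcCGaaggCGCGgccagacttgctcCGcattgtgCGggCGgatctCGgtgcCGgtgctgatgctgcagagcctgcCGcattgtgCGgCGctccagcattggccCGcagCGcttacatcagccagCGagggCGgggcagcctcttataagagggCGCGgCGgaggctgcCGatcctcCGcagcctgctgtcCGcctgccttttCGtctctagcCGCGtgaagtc
Map2: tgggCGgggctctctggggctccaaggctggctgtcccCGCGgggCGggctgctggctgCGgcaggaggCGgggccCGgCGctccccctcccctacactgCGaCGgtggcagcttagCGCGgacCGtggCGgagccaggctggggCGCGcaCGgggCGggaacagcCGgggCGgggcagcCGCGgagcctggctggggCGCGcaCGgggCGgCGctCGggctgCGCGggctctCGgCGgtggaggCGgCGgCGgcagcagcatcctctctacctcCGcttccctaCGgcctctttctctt
Crmp1: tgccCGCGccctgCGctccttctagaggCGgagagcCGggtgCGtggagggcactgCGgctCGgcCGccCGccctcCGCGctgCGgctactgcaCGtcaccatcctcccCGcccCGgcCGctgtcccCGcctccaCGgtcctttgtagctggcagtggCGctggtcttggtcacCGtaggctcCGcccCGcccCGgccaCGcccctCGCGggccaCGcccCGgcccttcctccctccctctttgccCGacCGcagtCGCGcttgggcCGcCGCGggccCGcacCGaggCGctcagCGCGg
Dcx: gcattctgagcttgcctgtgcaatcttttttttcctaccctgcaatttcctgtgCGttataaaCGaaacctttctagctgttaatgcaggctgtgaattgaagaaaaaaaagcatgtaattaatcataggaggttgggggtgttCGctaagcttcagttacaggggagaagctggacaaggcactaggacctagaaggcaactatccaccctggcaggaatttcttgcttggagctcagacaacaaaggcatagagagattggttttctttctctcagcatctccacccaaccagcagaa
The Tubb3, Map2 and Crmp1 windows held 26, 37 and 41 CpG, and that of Ina, which was not called in knockdown ESC, held 32. A second Crmp1 start had a window with 20 CpG. The Dcx window held 3, as did that of its second start. The median over 32841 promoter windows of the same length was 7, and 26.5% of them held at least 20. G+C made up 67.3% of the Tubb3, 77.7% of the Map2, 77.0% of the Crmp1 and 44.7% of the Dcx window, against a median of 52.7% over all windows. The E-box CAGCTG, searched on both strands, occurred in the Ina window and in none of the other members' windows, and 16.3% of all windows held it. The hexamer TATAAA of the TATA box, also searched on both strands, occurred in the Dcx window and in 13.6% of all windows. Matches anywhere in a window were counted, so they do not show a TATA box at the position of a working one.

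Values are RMA expression levels on the log2 scale, so a difference of 1 is a change to 2 times the level, and levels of different genes are not compared with each other because their probes differ. Array medians lay between 7.70 and 7.79 and lower quartiles between 5.84 and 6.11. Across genes, arrays of 1 group had correlations of 0.992 to 0.997. Kdm5b read 10.38, 10.48 and 10.54 in knockdown NPC, against 11.24, 11.15 and 11.30 in control NPC. In knockdown ESC it read 10.64, 10.90 and 10.50, against 12.25, 12.47 and 12.50 in control ESC. The knockdown values lay below all control values of the same cell state, with differences of -0.76 ± 0.11 in NPC (SE, 1.70-fold lower, adjusted p = 0.00524) and -1.73 ± 0.11 in ESC (SE, 3.31-fold lower, adjusted p = 1.82e-05). Among marker genes of neurons outside the 10, 14 rose and 2 fell of 16 in control NPC relative to control ESC, with array means of 9.19 to 9.37 in control NPC and 7.27 to 7.37 in control ESC. Of 14 neural progenitor markers 13 rose and 1 fell, and of 14 pluripotent cell markers 0 rose and 14 fell. Over all genes 48.6% were called in this comparison, 23.5% higher and 25.1% lower. So the labelled states carried the markers of their names.

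From ESC to NPC the 10 genes did not move as 1 block. In knockdown cells 8 of 10 rose and 1 fell at an adjusted p under 0.05 (limma, Benjamini-Hochberg over all genes), and in control cells 7 rose and 1 fell. Over all genes 48.8% were called in knockdown cells (23.8% higher, the rest lower) and 48.6% in control cells (23.5% higher, the rest lower). The median difference of the 10 genes, NPC minus ESC, was 1.76 in knockdown and 1.06 in control cells, against -0.068 and -0.042 over all genes. Dcx showed the largest rise, Stmn2 fell, and Mapt was not called in either. The adjusted p of the called genes lay between 6.69e-12 and 0.0226 in knockdown and between 1.70e-12 and 0.0307 in control cells. Groups did not overlap for 8 of 10 genes in knockdown and 8 of 10 in control cells, as for 62.4% and 52.3% of all genes. These calls come from a fit that leaves replicate numbers out. With the replicate number as a block on the 6 control arrays, 7 of the 10 genes were called in control cells, Crmp1 losing its call. That fit called 8940 of 18784 genes.

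Tubb3 encodes the beta-tubulin typical of neurons. It read 10.004, 9.976 and 10.013 in knockdown NPC and 10.01, 9.65 and 10.14 in control NPC, which overlapped. The ESC values were 8.22, 8.33 and 8.04 with the knockdown and 8.70, 8.57 and 9.01 in control, lower than in any NPC array and apart from each other. NPC exceeded ESC by 1.80 ± 0.14 in knockdown cells (SE, 3.48-fold) and by 1.17 ± 0.14 in control cells (SE, 2.26-fold).

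Map2 encodes a microtubule-associated protein of dendrites. Its values were 11.34, 11.36 and 11.29 in knockdown NPC and 11.58, 11.32 and 11.44 in control NPC, again overlapping, and 9.22, 8.72 and 8.72 in knockdown ESC and 9.53, 9.51 and 9.72 in control ESC. All NPC arrays lay above all ESC arrays, with differences of 2.44 ± 0.13 in knockdown and 1.87 ± 0.13 in control cells (SE). Mapt encodes tau, a microtubule-associated protein of axons. It read 7.22, 7.22 and 7.34 in knockdown NPC, 7.41, 7.14 and 7.13 in control NPC, 7.28, 7.61 and 7.79 in knockdown ESC and 7.52, 7.21 and 7.14 in control ESC. Neighbouring groups in the order of its levels overlapped throughout, and NPC minus ESC was -0.30 ± 0.14 in knockdown cells (SE, 95% interval -0.60 to 0.00082) and -0.065 ± 0.14 in control cells (SE, interval -0.36 to 0.23).

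Dcx encodes doublecortin, which binds microtubules in migrating young neurons. It read 10.42, 10.61 and 10.64 in knockdown NPC and 10.83, 10.63 and 10.70 in control NPC. In ESC it lay below the lower quartile of the arrays, at 5.33, 5.45 and 5.41 with the knockdown and 5.19, 4.92 and 5.29 in control, where RMA compresses differences. NPC minus ESC was 5.16 ± 0.11 in knockdown cells (SE, 35.8-fold, adjusted p = 6.69e-12) and 5.59 ± 0.11 in control cells (SE, 48.1-fold, adjusted p = 1.70e-12). With no detection call for the ESC values, these folds are only those of the RMA values.

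Stmn2 encodes a stathmin of the growth cone that destabilises microtubules. It went the other way, with 10.93, 10.98 and 10.94 in knockdown NPC and 11.21, 11.11 and 11.10 in control NPC, against 12.64, 12.33 and 12.44 in knockdown ESC and 12.64, 12.53 and 12.37 in control ESC. Its ESC levels were thus high on these arrays, far above the array medians, and the knockdown and control ESC values overlapped. NPC minus ESC was -1.52 ± 0.098 in knockdown cells (SE, 2.87-fold lower) and -1.37 ± 0.098 in control cells (SE, 2.59-fold lower). For this gene the name of the group, neuronal, did not match where its RNA was highest.

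The filament genes differed among themselves. Nefl, the light neurofilament subunit, read 11.22, 10.96 and 10.78 in knockdown NPC and 11.39, 11.73 and 11.23 in control NPC, and 9.652, 9.144 and 8.999 in knockdown ESC and 10.15, 10.64 and 10.74 in control ESC. The ranges of the 4 groups did not overlap, and NPC minus ESC was 1.72 ± 0.20 in knockdown and 0.94 ± 0.20 in control cells (SE). Nefm, the medium subunit, read 7.68, 8.36 and 8.52 in knockdown NPC and 7.96, 10.04 and 8.77 in control NPC, with 6.33, 6.31 and 5.94 in knockdown ESC and 6.06, 6.62 and 6.71 in control ESC. Control NPC varied most (SD 1.05, n = 3, against 0.44 in knockdown NPC, 0.22 in knockdown ESC and 0.35 in control ESC). Its difference was 1.99 ± 0.40 in knockdown and 2.46 ± 0.40 in control cells (SE).

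Ina encodes alpha-internexin, which joins the neurofilament subunits in young neurons. Its values were 11.61, 11.37 and 11.54 in knockdown NPC, 11.74, 11.78 and 11.63 in control NPC, 11.39, 10.91 and 10.27 in knockdown ESC and 11.24, 11.72 and 11.47 in control ESC. It was thus already at a high array level in ESC, and NPC minus ESC passed the test in knockdown cells (0.65 ± 0.21, SE, adjusted p = 0.0226) but not in control cells (0.24 ± 0.21, SE, adjusted p = 0.399). The call in knockdown cells was lost without knockdown NPC replicate 1 or 3 (adjusted p of 0.0698 and 0.0578) and without knockdown ESC replicate 3 (0.36 ± 0.16, SE, adjusted p = 0.0952).

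Gap43, a phosphoprotein of the growth cone membrane, read 9.66, 9.87 and 9.93 in knockdown NPC and 10.14, 9.35 and 9.51 in control NPC, against 7.76, 7.89 and 7.94 in knockdown ESC and 8.18, 8.67 and 8.31 in control ESC. The NPC groups overlapped and the ESC groups did not, and NPC minus ESC was 1.96 ± 0.18 in knockdown and 1.28 ± 0.18 in control cells (SE). Crmp1 encodes a collapsin response mediator protein, which carries semaphorin signals to the microtubules of the growth cone. It read 11.41, 11.28 and 11.49 in knockdown NPC and 11.50, 11.03 and 11.26 in control NPC, against 9.72, 10.17 and 9.73 in knockdown ESC and 10.52, 11.02 and 10.89 in control ESC. The lowest control NPC value was next to the highest control ESC value, and the ESC groups lay apart. NPC minus ESC was 1.52 ± 0.16 in knockdown cells (SE, adjusted p = 3.24e-06) and 0.45 ± 0.16 in control cells (SE, adjusted p = 0.0307). The call in control cells was lost with the replicate number as a block on the 6 control arrays (adjusted p = 0.0700), in a fit of these 6 arrays alone (adjusted p = 0.0535), and without control ESC replicate 1 (0.31 ± 0.16, SE), control NPC replicate 1 (0.34 ± 0.17, SE) or control NPC replicate 3 (0.46 ± 0.18, SE), at adjusted p of 0.138, 0.129 and 0.0640.

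**Figure D1:**
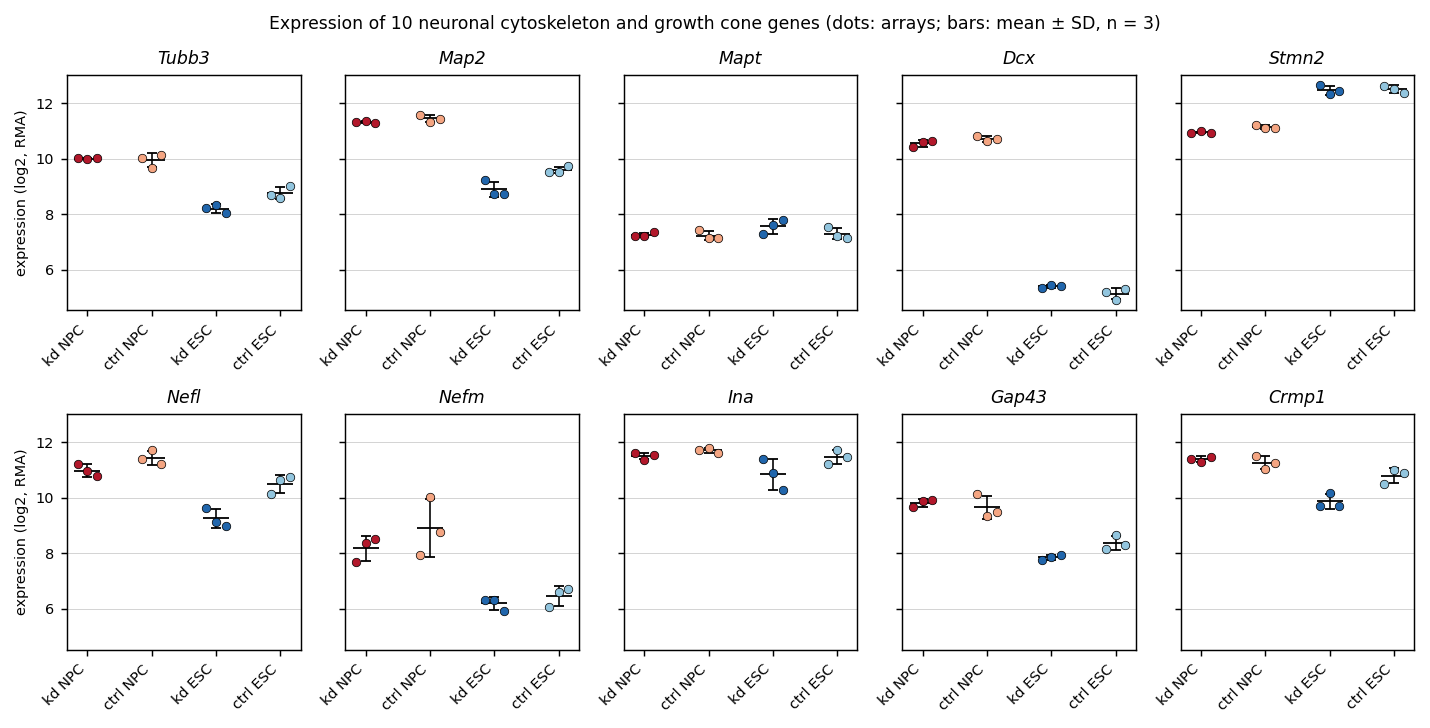
Expression (log2, RMA) of each of the 10 genes on every array. Dots are arrays, bars the mean ± SD (n = 3 per group), and kd and ctrl stand for Jarid1b knockdown and control. Dcx lay at 10.42 to 10.83 in NPC and at 4.92 to 5.45 in ESC, while Stmn2 was lower in NPC (10.93 to 11.21) than in ESC (12.33 to 12.64). The axis is shared so that changes can be compared, not the levels of different genes.

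**Figure D2:**
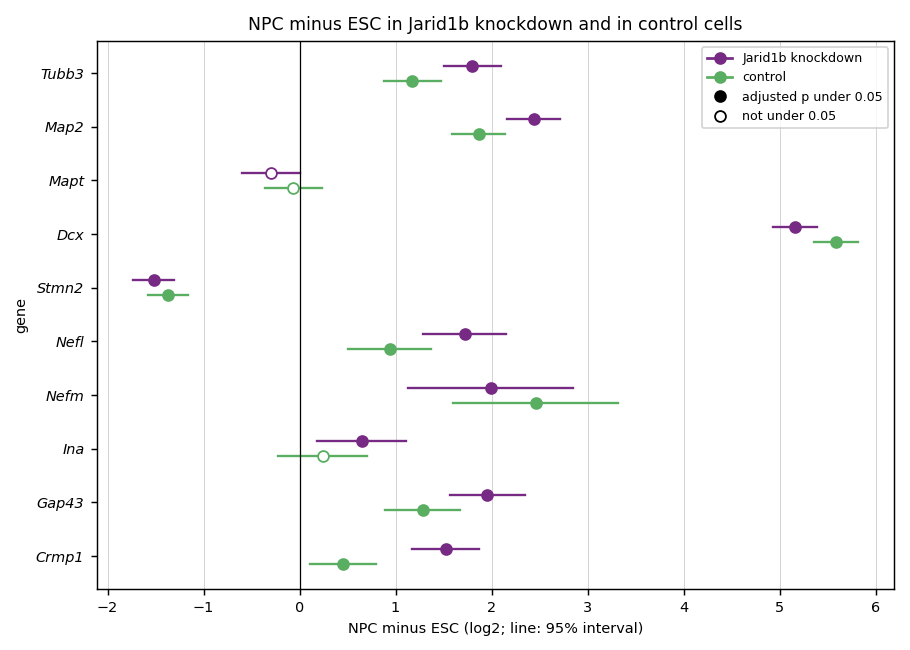
Difference NPC minus ESC (log2) of each gene, in Jarid1b knockdown and in control cells. Points are limma estimates, lines their 95% intervals, and filled points passed an adjusted p under 0.05. In knockdown cells 9 of 10 genes were called and in control cells 8 of 10, and Stmn2 is the gene called below 0.

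Related genes were read against the 48.8% and 48.6% of all genes called between the states in knockdown and in control cells. The 4 other collapsin response mediator genes all rose in both, by 1.44 to 3.35 in knockdown and 0.78 to 2.67 in control cells, with Dpysl2 at 3.35 ± 0.15 and 2.67 ± 0.15 (SE). Of 30 growth cone and axon genes 25 rose and 2 fell in knockdown cells and 26 rose and 1 fell in control cells. Dcc, a netrin receptor gene, showed 4.30 ± 0.11 and 4.42 ± 0.11 (SE). Of 22 microtubule proteins 11 rose and 3 fell in knockdown and 12 rose and 3 fell in control cells, the kinesin gene Kif5c being called with the smallest p (1.61 ± 0.12 and 2.01 ± 0.12, SE). Of 11 tubulins 2 rose and 3 fell in knockdown cells and 3 rose and 2 fell in control cells, a called share (45.5% in each) near that of all genes. Microtubule proteins were called at 63.6% in knockdown and 68.2% in control cells. Among the tubulins Tubb4a differed by 2.24 ± 0.13 and 2.10 ± 0.13 and Tuba4a by -2.45 ± 0.13 and -3.09 ± 0.13 (SE). Tubulin genes are near-identical in sequence, and the deposited values do not show how far their probes are shared.

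Among 12 other intermediate filament genes 6 rose and 5 fell in knockdown and 2 rose and 5 fell in control cells, which is 91.7% and 58.3% of the list. Nes, the nestin gene of neural progenitors, rose by 2.26 ± 0.18 and 2.24 ± 0.18 (SE). Nefh, the heavy neurofilament subunit, had -1.44 ± 0.29 in knockdown and -1.76 ± 0.29 in control cells (SE), the opposite direction to Nefl and Nefm. Of 8 genes of the REST complex, which represses neuronal genes outside neurons, 3 rose and 4 fell in knockdown cells and likewise in control cells. Rest itself had -1.55 ± 0.10 in knockdown and -1.59 ± 0.10 in control cells (SE).

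Knockdown of Jarid1b in ESC was accompanied by lower RNA of 4 of the 10 genes. Nefl changed by -1.24 ± 0.20 (SE, 2.37-fold lower, adjusted p = 0.00552), Crmp1 by -0.94 ± 0.16 (1.91-fold lower, adjusted p = 0.00762), Map2 by -0.70 ± 0.13 (1.62-fold lower, adjusted p = 0.0108) and Tubb3 by -0.56 ± 0.14 (1.47-fold lower, adjusted p = 0.0349). None of the 10 was called higher. Over all genes 5.21% were called in this comparison, 1.84% higher and 3.37% lower, and 19.2% had an unadjusted p under 0.05. The median change of the 10 was -0.54, against 0.017 over all genes, and 8 of 10 estimates were below 0. The fall of Nefl was the 40th largest of all decreases. Groups did not overlap for 6 genes, the 4 called and Dcx and Gap43, as for 24.2% of all genes. Of these 6, Dcx was the gene with the knockdown values above the control values.

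The other 6 genes were not called in ESC. Ina (-0.62 ± 0.21, 95% interval -1.08 to -0.16) and Gap43 (-0.52 ± 0.18, interval -0.91 to -0.13) had adjusted p of 0.121 and 0.119. The knockdown ESC arrays varied most for Ina (SD 0.56, n = 3), and its estimate was -0.89 ± 0.18 without knockdown replicate 1 (SE, adjusted p = 0.0219) and -0.33 ± 0.16 without knockdown replicate 3 (SE, adjusted p = 0.367). Dcx (0.26 ± 0.11, SE, interval 0.030 to 0.50) and Mapt (0.27 ± 0.14, SE, interval -0.029 to 0.57) had estimates above 0, at adjusted p of 0.193 and 0.315. Stmn2 had -0.041 ± 0.098 (SE, interval -0.25 to 0.17) and Nefm -0.27 ± 0.40 (SE, interval -1.13 to 0.59), the widest interval of the 10.

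The calls for Nefl and Crmp1 held without any 1 of the 6 ESC arrays, with changes of -1.44 to -1.11 and -1.08 to -0.83. Those for Map2 and Tubb3 did not. Without control ESC replicate 3 the adjusted p was 0.0636 for Map2 and 0.178 for Tubb3, and without knockdown ESC replicate 3 it was 0.0562 and 0.143, which left 2 of the 10 genes called. Tubb3 also lost its call without knockdown replicate 1 (adjusted p = 0.0809) or 2 (adjusted p = 0.0585) and in a fit of the 6 ESC arrays alone (adjusted p = 0.0615).

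In knockdown NPC 0 of the 10 genes were called, while 1.03% of all genes were (0.820% higher, 0.213% lower; limma). At an unadjusted p under 0.05, 1 of the 10 and 1789 of 18784 genes differed. The median of the 10 was -0.14, against 0.0037 over all genes. Nefl had -0.46 ± 0.20 (SE, adjusted p = 0.464), with an interval of -0.89 to -0.031, and Nefm -0.73 ± 0.40 (SE, interval -1.59 to 0.13, adjusted p = 0.650). Without control NPC replicate 2, its highest array, Nefm had -0.17, and without control NPC replicate 1 it had -1.22. The intervals of Tubb3 (-0.23 to 0.36), Map2 (-0.40 to 0.16), Mapt (-0.26 to 0.34), Dcx (-0.39 to 0.070) and Crmp1 (-0.21 to 0.48) excluded changes of 0.5 in either direction. That of Stmn2 (-0.40 to 0.022) did so too. Those of Ina (-0.67 to 0.25) and Gap43 (-0.23 to 0.54) reached beyond 0.5 in size, and all of these intervals included 0. Stmn2, Nefl and Ina were lower in every knockdown NPC array than in every control NPC array, and 14.2% of all genes had groups that did not overlap. For Nefl the highest knockdown value, 11.224, was next to the lowest control value, 11.226.

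**Figure D3:**
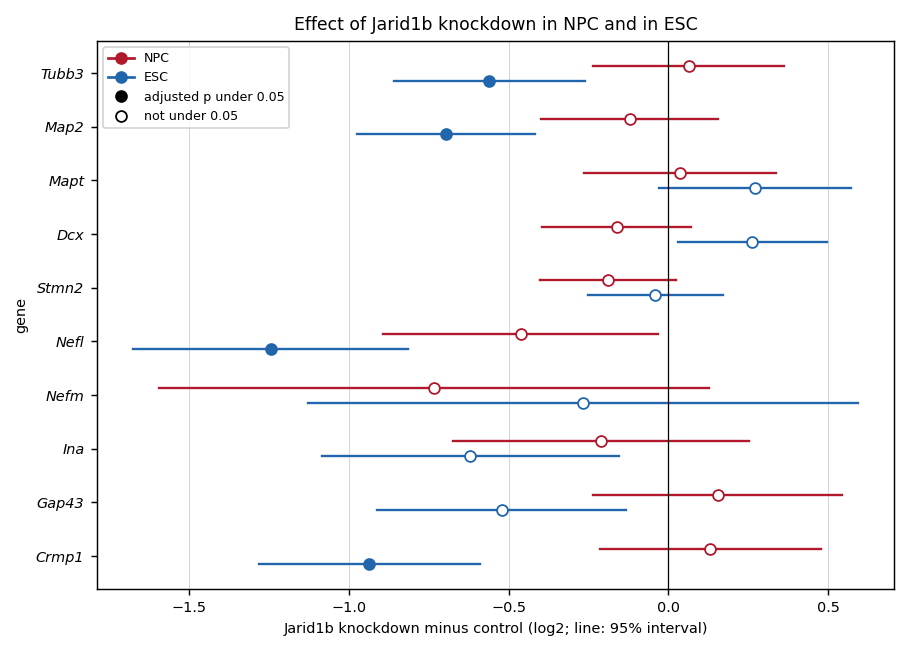
Jarid1b knockdown minus control (log2) of each gene in NPC and in ESC. Points are limma estimates, lines their 95% intervals, and filled points passed an adjusted p under 0.05. Nefl, Crmp1, Map2 and Tubb3 are called below 0 in ESC, from -1.24 to -0.56, and none of the 10 genes is called in NPC.

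The difference of the knockdown effects, NPC minus ESC, asks whether the fall seen in ESC differed from the effect in NPC. It is the same quantity as the NPC minus ESC difference in knockdown cells less that in control cells. Of the 10 genes 1 passed the test, against 1.42% of all genes (1.18% higher, 0.245% lower). Crmp1 had an effect of 0.13 ± 0.16 in NPC and -0.94 ± 0.16 in ESC, a difference of 1.07 ± 0.23 (SE, adjusted p = 0.0414). With the replicate number as a block the call was lost (1.07 ± 0.24, SE, adjusted p = 0.0637). It was also lost, at adjusted p up to 0.118, when any of 9 of the 12 arrays was left out; it held without knockdown ESC replicate 2 (adjusted p = 0.0428), control ESC replicate 1 (adjusted p = 0.0145) or control NPC replicate 1 (adjusted p = 0.0359). The estimate stayed between 0.95 and 1.22 in these fits. The fall of Kdm5b itself was smaller in NPC than in ESC, with a difference of 0.96 ± 0.16 (SE, limma, adjusted p = 0.0172). The knockdown thus differed in depth between the states, and its part in the difference of Crmp1 was not tested.

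For Nefl the difference was 0.78 ± 0.28 (SE, adjusted p = 0.203), for Gap43 0.68 ± 0.25 (adjusted p = 0.224), for Tubb3 0.62 ± 0.19 (adjusted p = 0.144) and for Map2 0.58 ± 0.18 (adjusted p = 0.147). Their 95% intervals lay above 0, but none passed the adjustment over all genes, so a difference between the states is not shown for the fall of Nefl, Map2 or Tubb3. Dcx had a difference of -0.43 ± 0.15 (SE, adjusted p = 0.200), with an effect of -0.16 in NPC and 0.26 in ESC. The comparisons within ESC, within NPC and between the states share arrays, so their values are not independent of each other.

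Other genes of the same systems did not all go the same way in knockdown ESC. Over all genes 5.21% were called there, 1.84% higher and 3.37% lower. Of the 4 other collapsin response mediator genes 0 rose and 2 fell, Dpysl3 (-0.63 ± 0.12, SE, adjusted p = 0.0138) and Dpysl2 (-0.64 ± 0.15, SE, adjusted p = 0.0266). The rest of this list was not called and had opposite signs, Dpysl4 at 0.32 ± 0.12 and Dpysl5 at -0.39 ± 0.11 (SE). The list median was -0.51, beside -0.54 for the 10 genes. Of 11 tubulins 0 rose and 1 fell, Tuba1a (-0.39 ± 0.093, SE), the alpha-tubulin abundant in young neurons. Of 22 microtubule proteins 2 rose and 0 fell, the kinesin gene Kif21b (0.54 ± 0.12, SE) and Map4 (0.51 ± 0.12, SE), which stabilises microtubules in dividing cells. Of 12 other intermediate filament genes 0 rose and 2 fell, the epithelial keratin gene Krt18 (-1.70 ± 0.39, SE) and the lamin gene Lmnb1 (-0.28 ± 0.075, SE).

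Of 30 growth cone and axon genes 4 rose and 2 fell in knockdown ESC, a called share of 20% against 5.21% of all genes. The adhesion gene Ncam1 (0.76 ± 0.13), the Slit receptor gene Robo1 (0.67 ± 0.12), the actin-binding gene Ablim1 (0.66 ± 0.14) and Tagln3 (0.57 ± 0.12, all SE) rose. The adhesion gene Nrcam (-0.82 ± 0.18) and Gpm6a (-0.75 ± 0.19, SE), a membrane glycoprotein gene, fell, and these 2 were named after their values were seen. Of 10 kinases and related genes that act on microtubule proteins 0 rose and 2 fell, Mapk8 (-0.34 ± 0.078, SE) and Cdk5 (-0.34 ± 0.091, SE). Of 8 REST complex genes 0 were called (limma) and 2 had an unadjusted p under 0.05, beside 19.2% of all genes, with Rest at -0.062 ± 0.10 (SE).

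In knockdown NPC 1 of 11 tubulins rose, Tuba4a (0.70 ± 0.13, SE, adjusted p = 0.0230), and 0 fell. Over all genes 1.03% were called there, 0.820% higher and 0.213% lower. Of 30 growth cone and axon genes 0 rose and 1 fell, Nrp1 (-0.57 ± 0.12, SE, adjusted p = 0.0405), which encodes a semaphorin and VEGF receptor. In the collapsin response mediator, microtubule protein, intermediate filament, kinase and REST lists 0 genes were called (limma). At an unadjusted p under 0.05 these lists held 0, 1, 1, 1 and 0 genes, in the same order, beside 9.52% of all genes. In the difference of the effects 3 of 30 growth cone and axon genes were called, against 1.42% of all genes (0.245% lower). The effect in NPC was below that in ESC for each of the 3: Ncam1 (-0.92 ± 0.18), Tagln3 (-0.84 ± 0.17) and Ablim1 (-0.95 ± 0.20, SE).

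**Figure D4:**
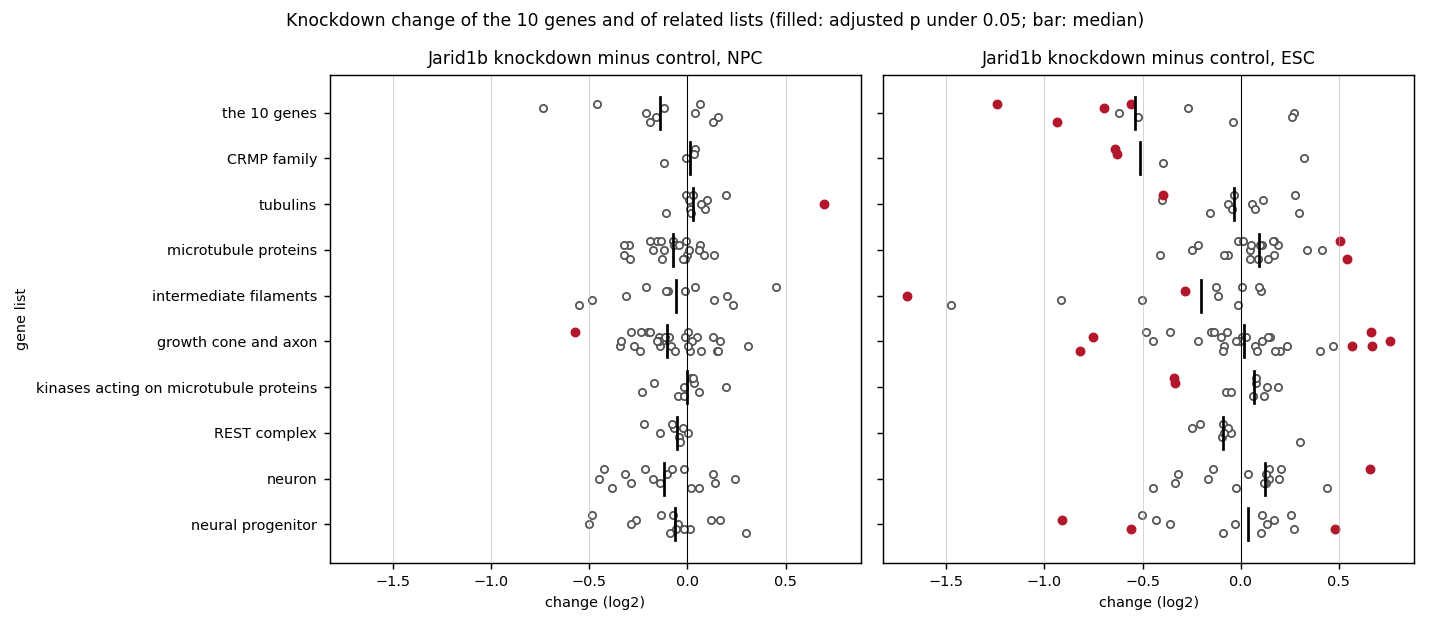
Change with Jarid1b knockdown (log2) of the 10 genes and of the related gene lists, in NPC at left and in ESC at right. Each dot is a gene, filled dots passed an adjusted p under 0.05 and bars are list medians. In ESC the medians of the 10 genes (-0.54) and of the other collapsin response mediator genes (-0.51) lie lowest of the lists drawn, and in NPC 0 of the 10 are filled.

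Markers of cell types were set beside these values. In knockdown ESC 5.21% of all genes were called, 1.84% higher and 3.37% lower. In knockdown ESC 1 of 16 neuron markers rose, Vamp2 (0.66 ± 0.11, SE), and 0 fell, with array means of 7.38 to 7.38 in knockdown and 7.27 to 7.37 in control ESC. Of 14 neural progenitor markers 1 rose, Msi1 (0.48 ± 0.12), and 2 fell, Slc1a3 (-0.56 ± 0.087) and Pax6 (-0.91 ± 0.20, all SE), with array means of 8.27 to 8.34 in knockdown and 8.37 to 8.45 in control ESC. Of 12 mesenchyme and fibroblast markers 0 rose and 1 fell, Tagln (-1.89 ± 0.40, SE), and of 7 neural crest markers 0 rose and 1 fell, Tfap2a (-0.82 ± 0.18, SE). Neural crest array means were 7.29 to 7.43 in knockdown and 7.61 to 7.74 in control ESC. Of 14 pluripotent cell markers 1 rose, Tcl1 (0.75 ± 0.15, SE), and 0 fell. Of 10 germ cell markers 2 rose, Stag3 and Mov10l1, of 12 endothelial markers 1 rose, Pecam1 (0.86 ± 0.18, SE), and 0 of either fell. Of 10 glial and 8 dividing cell markers 0 were called (limma), with 1 of each at an unadjusted p under 0.05, beside 19.2% of all genes. The part of these changes in the values of the 10 genes was not tested.

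Over all genes 1.03% were called in knockdown NPC, 0.820% higher and 0.213% lower. There 6 of 14 pluripotent cell markers and 8 of 10 germ cell markers rose and 0 of either fell. Their array means were 7.13 to 7.95 and 7.67 to 8.37 in knockdown NPC, against 6.35 to 6.85 and 5.99 to 6.54 in control NPC. Of 12 endothelial markers 0 rose and 4 fell, with array means of 6.61 to 7.002 in knockdown and 7.33 to 8.09 in control NPC. Of 16 neuron markers 0 were called (limma, 3 at an unadjusted p under 0.05), with array means of 9.13 to 9.16 in knockdown and 9.19 to 9.37 in control NPC. Of 14 neural progenitor, 10 glial, 7 neural crest and 8 dividing cell markers 0 were called either. At an unadjusted p under 0.05 (limma) these lists held 2, 3, 3 and 0 genes, beside 9.52% of all genes. Of 12 mesenchyme and fibroblast markers 0 rose and 1 fell, Postn (-0.81 ± 0.17, SE), while 8 had an unadjusted p under 0.05. The median change of this list was -0.44, with array means of 7.09 to 7.30 in knockdown and 7.51 to 7.95 in control NPC. The part of these changes in the values of the 10 genes was not tested. The array mean of the 10 genes themselves was 10.15 to 10.25 in knockdown NPC, 10.29 to 10.38 in control NPC, 8.53 to 8.75 in knockdown ESC and 8.97 to 9.16 in control ESC.

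Likeness of pattern was measured as the root mean square difference between 2 genes' values on the 12 arrays, after each was centred on its own mean. Closest to the average of the 10 genes were Srf (0.067), Nck2 (0.075), Hes6 (0.10), Tbpl1 (0.11) and Ube2e3 (0.12), in log2 units. Srf had 11.39 in knockdown NPC, 11.48 in control NPC, 9.81 in knockdown ESC and 10.35 in control ESC as group means. Of the 10 genes Tubb3 lay nearest to their average (0.18) and Dcx farthest (2.01), with Stmn2 at 1.43. The single gene nearest to Tubb3 was Stxbp6 (0.096), to Map2 Rhobtb3 (0.095), to Nefl Zfp869 (0.24), to Gap43 Gpm6b (0.16), to Crmp1 Tmem42 (0.16), and to Dcx Hoxa2 (0.22). For Stmn2 it was Fastkd1 (0.087), for Mapt Miox (0.083), for Ina Trp53bp1 (0.15) and for Nefm Epha5 (0.40). The 12 points fall into ESC and NPC, so a gene near in this measure differs between the states by a like amount.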

How the data were processed

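RNA of 12 mouse samples was measured on Affymetrix gene arrays. The authors deposited 1 log2 value per probe set and array; they were made with affy, RMA and limma, per the submitters' processing notes. The genome build was not given in the sources used here. As a method, RMA adjusts for background, equalizes the arrays' quantiles and pools probes, and it understates differences between low values. No detection calls came with the values, and precision is limited by how few arrays there are.

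Of 21212 probe sets 18786 had 1 symbol, 6 several and 2420 were not listed; the highest-mean probe set per symbol gave 18784 genes. Groups and replicate numbers came from the sample titles. One mean per group was estimated from the 12 arrays together (limma 3.58.1, R 4.3.3; lmFit, contrasts.fit, eBayes; 8 residual and 4.81 prior degrees of freedom), two-sided; p-values were adjusted by Benjamini-Hochberg over 18784 genes, with 0.05 as the threshold. The steps were tested on simulated data. Named genes were the 10 members, Kdm5b, up to 4 called genes with the smallest p per list, and the nearest genes by pattern. The members and lists (197 of 204 listed genes measured) were chosen with earlier results of these data known. Same-numbered control NPC and control ESC arrays deviated together across genes (r = 0.266, 0.286 and 0.334). No other comparison had all 3 above 0.1. The values given for control NPC minus control ESC are nonetheless those of the unpaired fit. Pairing by number, as read from the data, was used in an alternative fit of the 6 control arrays, which called 7 of the 10 genes. The alternatives tried were leaving out low genes, a replicate block, another variance prior, array weights, 2 normalizations, probe-set averaging, adjustment over all probe sets, the arrays of a comparison alone and leaving out each array. Promoter windows are RefSeq's for GRCm38.p6.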

Additional observations from a re-analysis of the deposited data

Results flagged for a closer look

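Crmp1 was the gene among the 10 whose knockdown effect differed between the cell states in the test of the difference itself, with 1.07 (NPC minus ESC, log2). Its effect was 0.13 ± 0.16 in NPC and -0.94 ± 0.16 in ESC (SE). The call was lost with the replicate block (adjusted p = 0.0637) and in 9 of the 12 fits that left out 1 array. Kdm5b also fell less in NPC (-0.76 ± 0.11) than in ESC (-1.73 ± 0.11, SE), and the part of this in the Crmp1 difference was not tested. Groups of 3 arrays are too small for a check of single outlying samples.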

How the results depend on the processing

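Of 805 values of single genes under the alternatives, 758 kept their direction and their side of the threshold, 25 lost the call, 9 gained it and 13 changed sign, none of them called in either fit. The sign changes with array weights gave 0.017 for Stmn2 in knockdown ESC, -0.0048 for Mapt in knockdown NPC, 0.080 for Mapt between control NPC and control ESC and 0.22 for the Nefm difference of effects. The other sign changes came from leaving out 1 array. Over all fits without 1 array, whether or not the sign changed, Stmn2 in knockdown ESC ran from -0.13 to 0.031. In knockdown NPC the ranges were -0.078 to 0.16 for Tubb3, -0.014 to 0.13 for Mapt and -0.0025 to 0.39 for Gap43. They were -0.95 to 0.093 for the Nefm difference of effects and -0.16 to 0.050 for Mapt in control NPC minus control ESC. The number of the 10 genes called in knockdown ESC, 4, was 2 to 4 without 1 array and 3 to 6 otherwise; in knockdown NPC it was 0 throughout. Between NPC and ESC it was 8 to 10 in knockdown cells and 7 to 8 in control cells. For the difference of the effects it was 0 to 2 without 1 array, 0 with the replicate block (Crmp1 1.07 ± 0.24, SE, adjusted p = 0.0637) and 3 with array weights (Crmp1, Tubb3 and Nefl). The replicate block on all 12 arrays changed no other call of the 10 genes. Array weights added Ina (adjusted p = 0.0359) and Gap43 (0.0404) in knockdown ESC. Over all genes the count called was 979 in knockdown ESC (193 without control replicate 3, 2887 with array weights), 194 in knockdown NPC (29 from its 6 arrays alone, 220 without control replicate 1) and 267 for the difference (35 without knockdown NPC replicate 2, 955 with array weights). Of these 267, 221 were higher and 46 lower; with median centring it was 172 and 70, and with quantile normalization 220 and 88. The filter on low values kept 10721 genes and 9 of the 10, leaving out Mapt. The causes of these shifts were not tested.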
